A study of Homo sapiens with 4 samples.

Results

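The 10 genes described here encode the 5 subunits of the transcription factor NF-kB and 5 of the proteins that bind them. They were taken by gene name from a deposited table of 60623 genes measured by RNA sequencing. The subunits are RELA, REL, RELB, NFKB1 and NFKB2. NFKBIA, NFKBIB and NFKBIE encode the classical inhibitors IkB-alpha, IkB-beta and IkB-epsilon, and BCL3 and NFKBIZ encode 2 atypical IkB proteins that act in the nucleus. The cells were T24, an established human bladder cancer line. Of 4 libraries, 2 came from cells that received a scramble control and 2 from cells that overexpressed miR-146a-5p, a microRNA (miRNA) that the series' design text describes as given by transfection of a mimic. Whether the paired libraries of each group are separate cultures is not stated. Every p-value from all 4 libraries thus reflects the spread among them, and that spread may be technical. Fits that leave out 1 library take their spread from the other group's pair alone. No dose or time after transfection is given in the labels. Because the design holds 1 cell line and no untreated cells, both groups share transfection.

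NF-kB proteins act as dimers of subunits that share a Rel homology domain. RELA, REL and RELB carry a transactivation domain, while NFKB1 and NFKB2 are made as long precursors whose processing yields p50 and p52. In resting cells classical IkB proteins hold dimers in the cytoplasm. Receptors such as those for interleukin-1, tumour necrosis factor and bacterial products activate the IkB kinase (IKK) complex, IkB is phosphorylated, ubiquitinated and degraded, and the freed dimers bind kB sites in promoters and enhancers. Several genes of the family are themselves NF-kB targets in textbooks, among them NFKBIA, NFKB2, RELB, BCL3 and NFKBIZ. miR-146a is known for acting on IRAK1 and TRAF6, which pass the signal from interleukin-1 and Toll-like receptors to IKK.

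The miRNA and the sites it can pair with are shown because they connect the treatment to the family. The capitals in the RefSeq mature sequence mark the seed, bases 2 to 8, and the capitals in the target stretches mark an 8-mer match, which is the complement of the seed followed by A.

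hsa-miR-146a-5p: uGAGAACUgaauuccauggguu

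IRAK1 3' UTR, base 40: cggaagtcaaAGTTCTCAtggtcagaag

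IRAK1 3' UTR, base 56: catggtcagaAGTTCTCAtggtgcacga

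REL 3' UTR, base 8912: atttttttaaAGTTCTCAggtactgttc

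The search covered, for each gene, the 3' UTR of its longest coding transcript (GENCODE release 29, GRCh38), counting 8-mers, 7-mers to bases 2 to 8, and 7-mers to bases 2 to 7 followed by A. IRAK1, on the minus strand of chromosome X, held 2 matches. Of the 10 family genes, REL held 1 match, at chr2:60931447-60931454 on the plus strand, near the end of a 3' UTR of 9075 bases. The other 9 genes held 0. Of 19004 genes with a 3' UTR, 3508 (18.5%) held a match, so the share in the family was not above that among all genes. A match is a description of letters and not a measured site.

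Promoter windows of 250 bases before to 50 after a transcription start (RefSeq, GRCh38) were present for 8 of the 10 genes, with 14 windows in all. RELB and NFKBIE were not matched. The classical kB consensus, 10 bases searched on both strands, occurred in 9 of the 14 windows and in 7 of the 8 genes. It occurred in 11.266% of all 35116 windows (3956). The word GGGAATTTCC, 1 form of the consensus, was picked because it occurred in the most of these genes. It was in windows of 5 of the genes (REL, NFKB1, NFKBIA, NFKBIB and NFKBIZ) and in 51 windows of all (0.145%). These counts only describe the windows, because the word was chosen from the same windows. RELA, whose 2 windows held no kB match, is the exception among the 8 genes. REL, NFKB1, NFKBIB and BCL3 also held matches, and in each of them the CPM of the groups overlapped. Whether a match goes with a change in level was not tested. Stretches outside annotated exons follow, in the direction of transcription, with kB letters in capitals. They are for the 3 genes whose miR-146a-5p libraries both lay above both scramble libraries in CPM, and for RELA for contrast. NFKB2 has 3 windows. The window at the start of the gene, chr10:102393860-102394159, held 0 matches. The one shown belongs to a start inside the gene and was chosen because it holds matches. The RELA stretch shown lies upstream of the annotated gene, chr11:65653596-65663094. The other RELA window, chr11:65662867-65663166, spans the annotated start, has 18 bases outside annotated exons and also held 0 matches.

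NFKBIZ, chr3:101827740-101827989, plus strand: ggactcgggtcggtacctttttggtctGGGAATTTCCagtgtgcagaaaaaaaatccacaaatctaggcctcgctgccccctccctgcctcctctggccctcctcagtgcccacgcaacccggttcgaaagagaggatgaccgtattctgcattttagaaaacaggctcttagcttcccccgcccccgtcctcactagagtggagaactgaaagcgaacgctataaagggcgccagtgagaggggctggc

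NFKBIA, chr14:35404750-35404999, minus strand: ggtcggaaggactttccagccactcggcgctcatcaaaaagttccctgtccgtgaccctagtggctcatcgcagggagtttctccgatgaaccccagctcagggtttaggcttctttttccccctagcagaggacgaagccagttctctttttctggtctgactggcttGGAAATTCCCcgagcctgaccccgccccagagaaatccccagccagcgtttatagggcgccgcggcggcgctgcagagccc

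NFKB2, chr10:102395455-102395692, plus strand: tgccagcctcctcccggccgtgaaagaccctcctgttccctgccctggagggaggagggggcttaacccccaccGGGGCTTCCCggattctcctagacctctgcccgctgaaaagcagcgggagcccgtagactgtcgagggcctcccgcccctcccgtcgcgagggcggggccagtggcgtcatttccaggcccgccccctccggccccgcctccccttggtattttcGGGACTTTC

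RELA, chr11:65663858-65664107, minus strand: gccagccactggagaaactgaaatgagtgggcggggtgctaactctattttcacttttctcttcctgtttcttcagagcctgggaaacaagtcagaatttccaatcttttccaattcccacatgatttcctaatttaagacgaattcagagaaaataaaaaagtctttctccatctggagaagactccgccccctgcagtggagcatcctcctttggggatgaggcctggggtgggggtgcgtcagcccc

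The NFKBIZ match lies 223 to 214 bases before the start and the NFKBIA match 81 to 72 bases before it, on the opposite strand. The NFKB2 window shown holds matches 176 to 167 and 21 to 12 bases before the start, the latter without its last base here because that base is in an annotated exon. No binding was measured in these libraries.

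Library totals lay between 20290055 and 22774090 estimated counts, with 20515 to 21266 genes above 0. The scramble libraries differed more from each other than the miR-146a-5p libraries did. Across the tested genes the correlation of log2 CPM (counts scaled to library size) was 0.925 between the scramble libraries and 0.989 between the miR-146a-5p libraries, genes not being independent replicates. The correlation with miR-146a-5p replicates 1 and 2 was 0.979 and 0.981 for scramble replicate 1, and 0.942 and 0.936 for scramble replicate 2. IRAK1, the known target, had 499 and 717 CPM in the scramble libraries and 109 CPM in each miR-146a-5p library (DESeq2 adjusted p = 5.03e-09, edgeR adjusted p = 0.728). MIR3142HG, the host transcript of the miR-146a precursor, had 1.07 and 0.396 CPM in scramble and 8.37 and 9.50 CPM with miR-146a-5p. Among 14 epithelial and urothelial markers the keratins KRT7, KRT8 and KRT18 were abundant (579 to 2900 CPM). KRT7 and KRT8 overlapped between groups. KRT18 had 706 and 1160 CPM in scramble and 643 and 579 CPM with miR-146a-5p, and KRT19 had 31.9 and 42.6 CPM against 15.9 and 14.4 CPM. Both were thus lower in both miR-146a-5p libraries. EPCAM and GATA3, at 0.22 to 1.5 CPM, were higher in both. Neither edgeR nor DESeq2 called any of these markers. The epithelial cadherin CDH1, the basal markers KRT5 and TP63, and KRT20 and the uroplakins UPK1A, UPK1B, UPK2 and UPK3A of differentiated urothelium had 0 to 3 counts in every library. Summed mesenchymal markers were 3910 and 5310 CPM in scramble and 8220 and 7880 CPM with miR-146a-5p. VIM, ZEB1 and ZEB2 overlapped between groups, with VIM at 2590 and 3810 CPM in scramble and 3680 and 3380 CPM with miR-146a-5p. TWIST1 had 0 counts, and CDH2, SNAI2 and FN1 did not overlap. Of the mesenchymal markers, DESeq2 called fibronectin, FN1, named after its values were seen. FN1 had 992 and 1240 CPM in scramble and 4180 and 4140 CPM with miR-146a-5p (DESeq2 adjusted p = 2.43e-06). The part of this in the results for the family was not tested. Summed leukocyte markers were 12.7 to 17.3 CPM, mostly CD68, with CD3E and MS4A1 at 0 and PTPRC at 0 to 4 counts.

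Against this spread, 1 gene of the family, NFKBIZ, stood about 5-fold higher with miR-146a-5p, and NFKBIA stood 1.59-fold higher with both libraries above both scramble libraries. In bulk RNA, more cells with a transcript and more transcript per cell cannot be told apart. RELA and NFKB1, the most abundant Rel protein transcript and the p105/p50 precursor, differed by less than the spread between scramble libraries. All 10 genes passed the filter on low counts. edgeR's quasi-likelihood test, the main test, put 0 of the 10 past an adjusted p of 0.05, as it did 0 of all 14810 tested genes (0%), with 549 of those and 1 of the 10, NFKBIZ, at an unadjusted p under 0.05. The lowest adjusted p of any gene was 0.728. DESeq2 on the same rounded counts put 1 of the 10, NFKBIZ, past the threshold, beside 52 of 16044 genes (0.324%), of which 44 (0.274%) were higher and 8 lower with miR-146a-5p, and 434 were at an unadjusted p under 0.05. The authors' deposited table marks the same 1 of the 10. Of the 10 log2 fold changes, 7 were above 0 and 3 below, with a median of 0.18, beside a median of 0.00 over all tested genes. The median was 0.42 with scramble replicate 1 as the only reference and 0.09 with scramble replicate 2. In NFKB2, NFKBIA and NFKBIZ both miR-146a-5p libraries lay above both scramble libraries, which 2668 of the tested genes (18.0%) did. None of the 10 lay below in both, which 2658 genes (17.9%) did, and 7 of the 10 overlapped. These counts are in CPM and differ in TPM, as given below.

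Among the subunits, RELA (p65, chr11:65653596-65663094, minus strand) had 88.9 and 125 CPM in the scramble libraries and 110 and 102 CPM with miR-146a-5p. Both miR-146a-5p values fell between the scramble values. The log2 fold change was -0.01 ± 0.24 (SE), with a 95% interval of -0.67 to 0.65, so a change of up to about that size in either direction was not detectable here. NFKB1 (chr4:102501329-102617302, plus strand) had 68.5 and 88.0 CPM in scramble and 84.5 and 82.8 CPM with miR-146a-5p, again inside the scramble range. Its log2 fold change was 0.10 ± 0.22 (SE, interval -0.49 to 0.68).

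NFKB2 (chr10:102394110-102402529, plus strand) encodes p100, the precursor of p52 in the non-canonical pathway and itself able to hold RELB in the cytoplasm. It had 79.3 and 114 CPM in scramble and 123 and 116 CPM with miR-146a-5p, so the groups did not overlap, but the lower miR-146a-5p library stood just above the higher scramble library. The log2 fold change was 0.31 ± 0.25 (SE, interval -0.37 to 0.98, edgeR adjusted p = 0.97). RELB (chr19:45001430-45038198, plus strand), the usual partner of p52, had 8.63 and 12.7 CPM in scramble and 15.3 and 12.1 CPM with miR-146a-5p. The groups overlapped, with a log2 fold change of 0.36 ± 0.31 (SE, interval -0.47 to 1.18).

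REL (c-Rel, chr2:60881521-60931610, plus strand), best known from lymphoid cells and the only family gene with a seed match, could not be placed. It had 206.84 and 14.35 estimated counts in scramble and 123.17 and 115.09 with miR-146a-5p, or 9.26, 0.615, 5.75 and 5.63 CPM. Scramble replicate 1 stood 15-fold above scramble replicate 2, and both miR-146a-5p libraries lay between them. With scramble replicate 1 as the only reference its log2 fold change was -0.69, and with scramble replicate 2 it was 3.20. With all 4 libraries the interval ran from -2.97 to 3.38, so these libraries give no direction for the family gene that holds the seed match.

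Of the classical inhibitors, NFKBIA (IkB-alpha, chr14:35401511-35404749, minus strand), which is degraded on stimulation and then remade as an NF-kB target, had 60.6 and 88.3 CPM in scramble and 127 and 110 CPM with miR-146a-5p. The means were 74.4 ± 19.6 and 119 ± 11.9 CPM (SD, n = 2 libraries each). The groups did not overlap. The log2 fold change was 0.67 ± 0.27 (SE, interval -0.05 to 1.39), with an edgeR adjusted p of 0.97 and a DESeq2 adjusted p of 1.0. NFKBIA's edgeR log2 fold change was 0.98 with scramble replicate 1 as the only reference and 0.43 with scramble replicate 2. Those fits assume that the lone scramble library varies like the miR-146a-5p pair.

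NFKBIB (IkB-beta, chr19:38899700-38908893, plus strand) had 16.5 and 11.6 CPM in scramble and 14.3 and 13.2 CPM with miR-146a-5p. NFKBIE (IkB-epsilon, chr6:44258166-44265788, minus strand) had 7.43 and 12.2 CPM in scramble and 8.55 and 7.45 CPM with miR-146a-5p. In each the miR-146a-5p values lay inside the scramble range. The log2 fold changes were -0.03 ± 0.27 for NFKBIB and -0.29 ± 0.33 for NFKBIE (SE), with intervals of -0.76 to 0.71 and -1.19 to 0.60. Whether the 3 inhibitors differ from one another in response was not tested.

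NFKBIZ (IkB-zeta, chr3:101827991-101861022, plus strand) is an inducible nuclear protein that works with p50 dimers at genes such as IL6 and LCN2. Its counts were 386 and 325 in the scramble libraries and 1712 and 1631 with miR-146a-5p, which is 17.3, 14.3, 80.0 and 79.9 CPM. The means were 15.8 ± 2.11 and 80.0 ± 0.0912 CPM (SD, n = 2 libraries each), a 5.07-fold difference, and the gap between groups was many times the gap within either. edgeR gave a log2 fold change of 2.34 ± 0.22 (SE, interval 1.75 to 2.93) with an unadjusted p of 0.000307 and an adjusted p of 0.728, the fifth smallest p of all tested genes (rank 5). DESeq2 gave 2.32 ± 0.33 (SE) with an adjusted p of 6.16e-09, rank 6, and the authors' deposited table lists a fold of 5.0 with an adjusted p of 6.07e-09. Over all alternatives the log2 fold change stayed between 2.19 and 2.49. With all 4 libraries the adjusted p ran from 6.16e-09 in DESeq2 to 0.958 in edgeR with replicate numbers crossed between groups as a block. With miR-146a-5p replicate 1 or miR-146a-5p replicate 2 left out, the DESeq2 call was lost.

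BCL3 (chr19:44747705-44760044, plus strand), the other atypical member, partners p50 and p52 dimers and can activate or repress. It had 8.28 and 13 CPM in scramble and 12.2 and 11.7 CPM with miR-146a-5p, inside the scramble range. Its log2 fold change was 0.16 ± 0.30 (SE, interval -0.66 to 0.99). NFKBID, the remaining nuclear IkB-like gene, had 2.37 and 1.93 CPM in scramble and 2.99 and 3.97 CPM with miR-146a-5p (log2 fold change 0.69 ± 0.32, SE, edgeR adjusted p = 0.97).

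**Figure D1:**
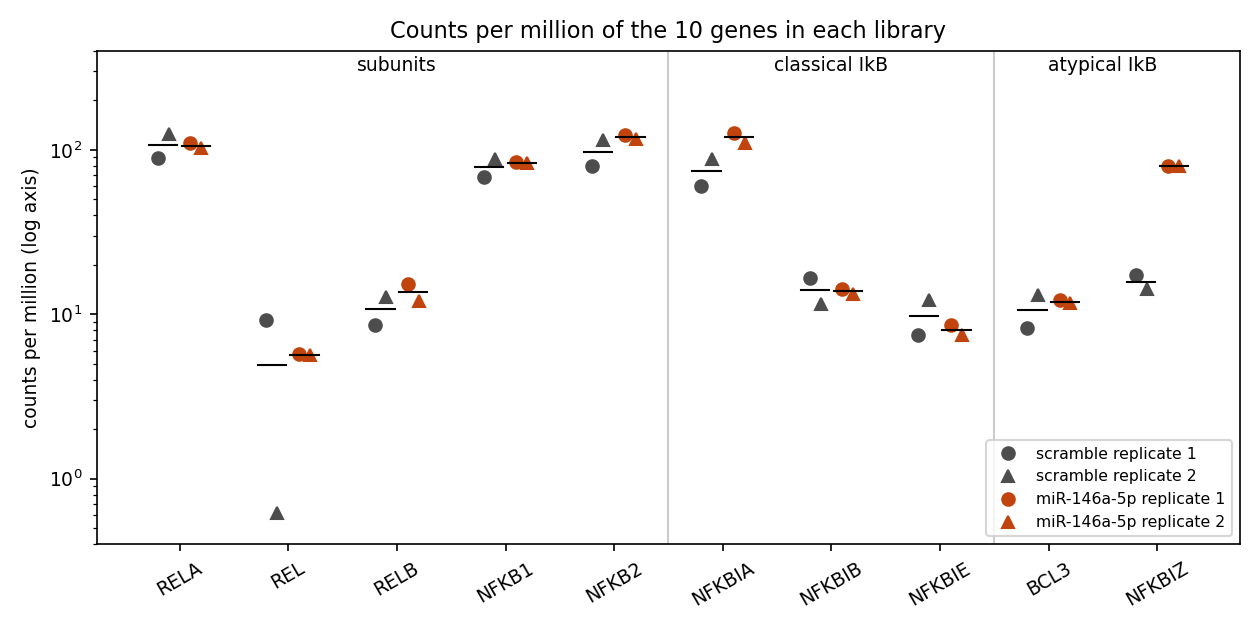
CPM (log axis) of the 10 genes in each of the 4 libraries, with circles for replicate 1, triangles for replicate 2 and a line at each group's mean. NFKBIZ stands at 80.0 and 79.9 CPM with miR-146a-5p against 17.3 and 14.3 CPM in scramble, and REL differs 15-fold between the scramble libraries.

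How the family looked depended on which scramble library it was set against. Calls with 1 scramble library as the reference take their spread from the miR-146a-5p pair alone. They assume that the lone scramble library varies like that pair. Against scramble replicate 1 alone, 8 of the 10 log2 fold changes were above 0, and edgeR put 8 of the 10 genes past the threshold (all but NFKBIB and NFKBIE), beside 21.7% of all genes in that fit. Against scramble replicate 2 alone, 6 were above 0, and edgeR put 5 of the 10 past the threshold (RELA, REL, NFKBIA, NFKBIE and NFKBIZ), beside 54.9% of all genes. DESeq2 put 3 of the 10 past it in each case: NFKBIZ, NFKBIA and NFKB2 against scramble replicate 1, beside 9.64% of genes, and NFKBIZ, NFKBIA and REL against scramble replicate 2, beside 38.1%. In 6 of the 10 genes (RELA, REL, NFKB1, NFKBIB, NFKBIE and BCL3) the sign differed between the references. RELA, for example, was 0.27 against scramble replicate 1 and -0.23 against scramble replicate 2. RELB was 0.68 and 0.11, NFKB2 0.60 and 0.07, NFKBIA 0.98 and 0.43, and NFKBIZ 2.22 and 2.49, all above 0 against each scramble library.

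**Figure D2:**
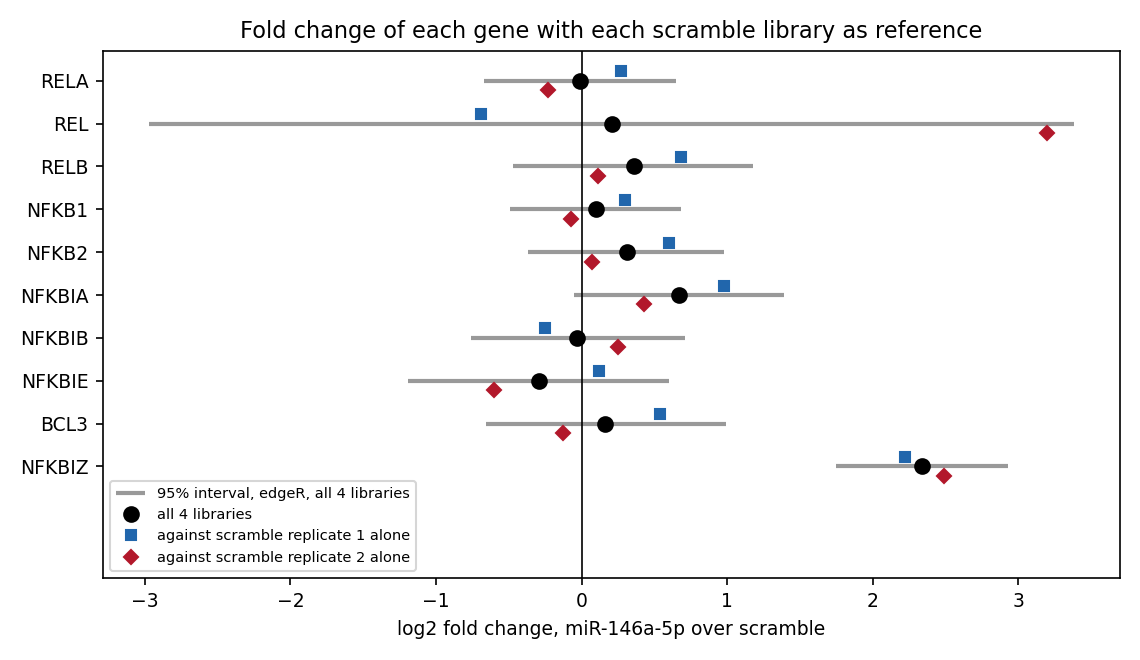
Log2 fold change of each gene, miR-146a-5p over scramble, from all 4 libraries (black, with its 95% interval from edgeR) and with 1 scramble library as the reference (blue squares, replicate 1; red diamonds, replicate 2). The NFKBIZ values lie between 2.22 and 2.49, while those of 6 genes fall on both sides of 0.

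The difference between the scramble libraries followed base composition. With the tested genes in 10 equal bins by GC content of their longest transcript, the median of scramble replicate 2 minus scramble replicate 1 ran from -1.76 (log2 CPM) in the lowest bin to 0.57 in the highest. The same medians for the miR-146a-5p mean minus scramble replicate 1 stayed between -0.17 and 0.09. The family's transcripts are mostly GC-rich, from 50.1% in NFKB1 to 67.4% in BCL3 apart from NFKBIZ at 46.2% and REL at 38.7%. Of the 10 genes, 7 were higher in scramble replicate 2, by 0.36 to 0.71, where their bins' medians were 0.21 to 0.57. The exceptions were REL, at -3.72 in a bin with a median of -1.28, NFKBIB, at -0.51 in a bin with a median of 0.47, and NFKBIZ, at -0.27 in a bin with a median of 0.06. With offsets for GC content and length in each library, 9 of the 10 log2 fold changes were above 0. NFKBIA then stood at 0.75, NFKB2 at 0.49, RELB at 0.54, RELA at 0.12, BCL3 at 0.35 and NFKBIZ at 2.31, the last with an edgeR adjusted p of 0.148. What made the libraries differ by base composition was not tested.

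**Figure D3:**
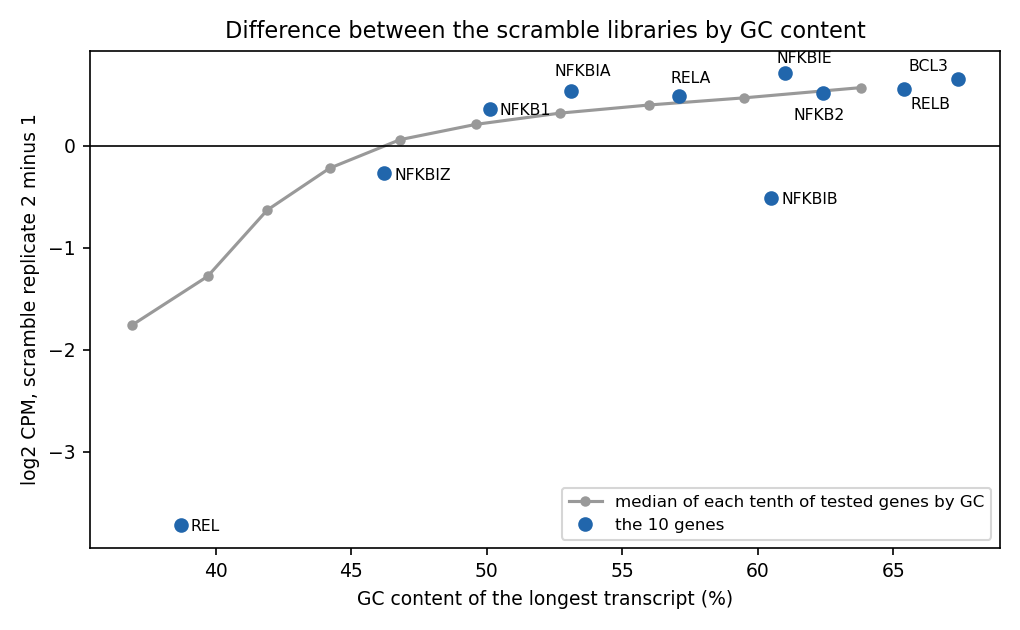
Log2 CPM of scramble replicate 2 minus scramble replicate 1 against the GC content of the longest transcript, for the 10 genes (blue) and as the median of each of 10 equal bins of tested genes (grey). Most of the 10 genes lie near the grey line, and REL lies at -3.72, below its bin's median of -1.28.

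Levels of different genes were compared in the authors' TPM, a transcript abundance scaled by length and library. In scramble the order of mean TPM was RELA (71.5), NFKBIA (68.9), NFKB2 (43.3), NFKB1 (25.5), NFKBIB (12.3), BCL3 (9.55), RELB (6.19), NFKBIZ (5.73), NFKBIE (5.60) and REL (0.990). RELA and NFKBIA overlapped across the scramble libraries, as did NFKBIB with BCL3 and the trio of RELB, NFKBIZ and NFKBIE, while NFKB2, NFKB1 and REL each stood apart from their neighbours. With miR-146a-5p the order was NFKBIA (115), RELA (73.7), NFKB2 (58.3), NFKBIZ (29.3), NFKB1 (28.3), BCL3 (13), NFKBIB (12.5), RELB (8.45), NFKBIE (5.02) and REL (0.865). NFKBIA then lay above RELA in both libraries, and NFKBIZ had moved from rank 8 to rank 4, just above NFKB1. BCL3 and NFKBIB still overlapped.

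Ratios within a library give the balance of inhibitor to factor transcripts. NFKBIA over RELA was 0.972 and 0.956 in the scramble libraries and 1.55 and 1.56 with miR-146a-5p, a 1.61-fold difference. The summed classical IkB transcripts over the summed RELA, REL and RELB transcripts were 1.15 and 1.06 in scramble and 1.57 and 1.62 with miR-146a-5p, or 1.11 ± 0.0651 and 1.59 ± 0.0410 (SD, n = 2 libraries each). This 1.44-fold difference exceeded the spread within groups, but an exact permutation test (two-sided) gave p = 0.333, the smallest that 2 against 2 libraries allow. The IkB sum was 81.9 and 91.6 TPM in scramble and 138 and 127 TPM with miR-146a-5p. The Rel sum was 71.0, 86.4, 87.9 and 78.0 TPM in the same order, and its groups overlapped. NFKBIA made up 75.7% and 82.7% of the IkB sum in scramble and 87.7% and 85.7% with miR-146a-5p. In NFKBIB and in NFKBIE the TPM of the groups overlapped. The summed ratio is thus no separate result from NFKBIA over RELA. Within the subunits, RELA made up 48.7% and 48.3% of TPM in scramble and 43.4% and 43.5% with miR-146a-5p, and NFKB2 27.5% and 30.8% against 35.3% and 33.4%.

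The pair of non-canonical subunits kept its proportion. NFKB2 over RELB was 6.66 and 7.26 in scramble and 6.74 and 7.10 with miR-146a-5p, so the groups overlapped. The atypical pair did not: NFKBIZ over BCL3 was 0.799 and 0.435 in scramble and 2.07 and 2.48 with miR-146a-5p. NFKBIZ supplied 3.03% and 1.68% of the TPM of the 10 genes in scramble and 8.06% and 9% with miR-146a-5p. These are transcript ratios, and protein, its location and IkB degradation were not measured.

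**Figure D4:**
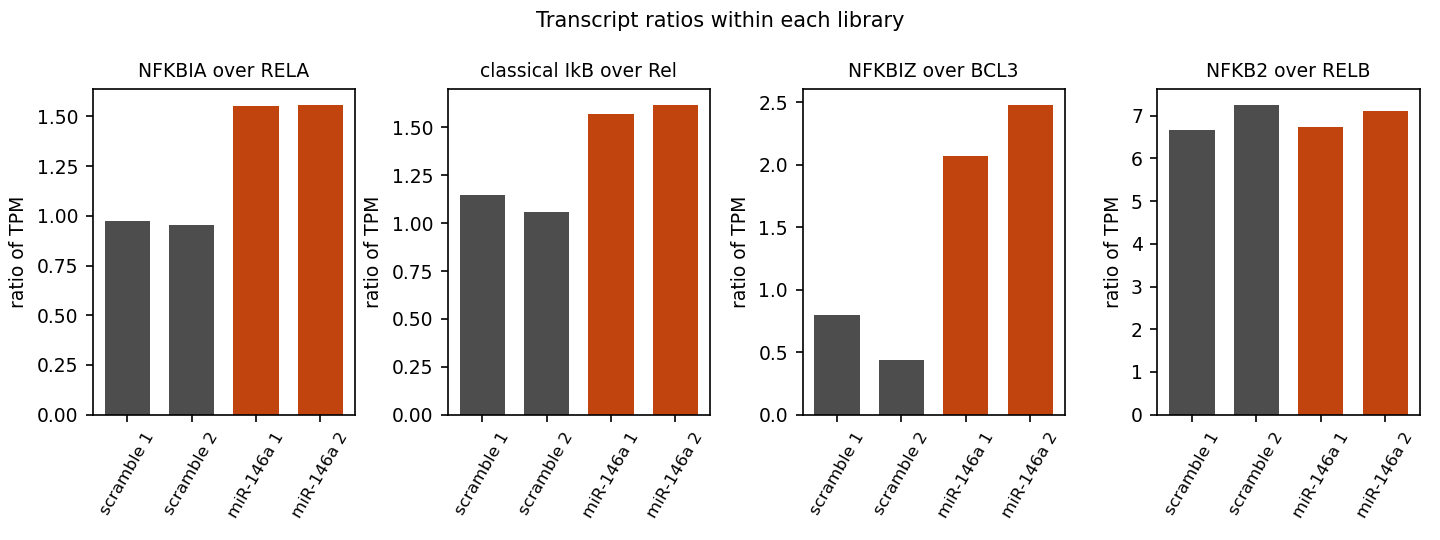
Ratio of TPM between genes or summed genes within each library (grey, scramble; orange, miR-146a-5p), 1 panel per ratio, with axes from 0. NFKBIA over RELA is 0.972 and 0.956 in scramble and 1.55 and 1.56 with miR-146a-5p, while NFKB2 over RELB overlaps between groups.

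TPM and counts gave different fold changes for some members. Dividing count by TPM gives a value proportional to the transcript length that the authors' estimate used, and its highest over its lowest value across the 4 libraries had a median of 1.10 over tested genes. It was 2.15 for REL, 1.47 for NFKBIE and 1.35 for BCL3, and 1.02 to 1.19 for the other 7. BCL3 thus had a log2 fold change of 0.16 in CPM and 0.44 in TPM, and REL 0.20 in CPM and -0.19 in TPM. NFKBIZ was the same on both scales, at 2.34 and 2.35. NFKB1, RELB and BCL3 overlapped between groups in CPM, but in TPM both miR-146a-5p libraries lay above both scramble libraries. In scramble and then miR-146a-5p, NFKB1 had 23.91, 27.11, 28.19 and 28.47 TPM. RELB had 5.42, 6.95, 9.38 and 7.51 TPM, and BCL3 had 8.67, 10.43, 14.03 and 11.92 TPM. RELA, REL, NFKBIB and NFKBIE overlapped on both scales. The share of all genes above in TPM was not counted.

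Profiles over the 4 libraries were compared as log2 CPM centred on each gene's mean, by Euclidean distance, a description over 4 points that share the GC trend. The closest pairs within the family were RELA with NFKB1 (0.141), NFKB2 with BCL3 (0.161) and RELB with NFKB2 (0.192). REL was at least 2.56 from every other member and NFKBIZ at least 1.75, its nearest being NFKBIA. Among 9410 genes with a mean of at least 10 CPM, those nearest to RELA were DYNLL1, COX7A2 and PLD3, those nearest to NFKB2 were SDC1, S100A2 and CDKN1A, those nearest to RELB were ZNF513, TYMP and PECR, and those nearest to NFKBIA were BIN3, ALDOC and NDRG4. RELA's profile was common, with 2395 genes within 0.25 of it. NFKB2 had 372, RELB 113 and NFKBIA 55.

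Upstream of the family, the genes of the pathway from receptors and adaptors to IKK showed no common direction. Of 23 receptors and adaptors, all tested, 14 log2 fold changes were above 0 and 9 below, with a median of 0.11, and DESeq2 called 2, both lower. They were IRAK1 and CARD10. CARD10, a scaffold that links receptors to BCL10 and MALT1, had 64.0 and 101 CPM in scramble and 25.8 and 29.4 CPM with miR-146a-5p (DESeq2 adjusted p = 0.0262). TRAF6, the other known target named above, had 19.3 and 12.8 CPM in scramble and 9.96 and 8.72 CPM with miR-146a-5p. Its log2 fold change was -0.78 (edgeR unadjusted p = 0.055, adjusted p = 0.97), and neither tool called it. Of 12 IKK and upstream kinase genes, 8 were above 0 and 4 below (median 0.29), and neither edgeR nor DESeq2 called any, with 0 at an edgeR unadjusted p under 0.05. The 2 with the smallest p were MAP3K8, a kinase held by p105, at 3.76 and 4 CPM in scramble and 5.05 and 6.61 CPM with miR-146a-5p, and TANK, a TRAF-binding adaptor, at 30.6 and 10.3 CPM against 38.1 and 39.3 CPM. The median of these 12 was 0.09 with scramble replicate 1 as the only reference and 0.65 with scramble replicate 2.

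A list of 12 genes held the ubiquitin ligase that marks IkB for degradation and enzymes and factors that work with it. They split 7 above and 5 below 0 (median 0.16), with 0 called by either tool and 0 at an edgeR unadjusted p under 0.05. CUL1, the cullin of the ligase, had 119 and 84.0 CPM in scramble and 135 and 133 CPM with miR-146a-5p. UBE2R2, a ubiquitin-conjugating enzyme, had 105 and 134 CPM against 96.7 and 95.1 CPM. Of 9 other IkB-like and RelA-binding regulators, 3 were above and 6 below 0 (median -0.10, but 0.12 against scramble replicate 1 alone), with 0 called by either tool and 0 at an edgeR unadjusted p under 0.05. CITED2, which competes with RELA for coactivators, had 35.4 and 48.4 CPM in scramble and 30 CPM in each miR-146a-5p library. Of 18 nuclear cofactors, 8 were above and 10 below 0 (median -0.06), with 0 called by either tool and 1 at an edgeR unadjusted p under 0.05. That was TBL1X, a corepressor exchange factor, at 76.5 and 94.2 CPM in scramble and 49.5 and 53.6 CPM with miR-146a-5p. PRKACA, a kinase that phosphorylates RELA, was next, at 29.1 and 12.7 CPM against 11.2 and 10.7 CPM.

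Downstream of the family, of 11 feedback regulators, 10 were tested, with 8 above and 2 below 0 (median 0.38). That median was 0.11 with scramble replicate 1 as the only reference, 0.56 with scramble replicate 2, and 0.24 when offsets for GC content and length were used. DESeq2 called 2, both higher, ZC3H12A and TNFAIP3, beside 44 of all 16044 genes (0.274%). ZC3H12A, an RNase that degrades inflammatory messages, had 5.82 and 10.2 CPM in scramble and 33.9 and 32.3 CPM with miR-146a-5p (DESeq2 adjusted p = 0.00211). TNFAIP3 (A20), a ubiquitin-editing inhibitor of IKK activation, had 19.7 and 22.2 CPM against 50.3 and 52.6 CPM (DESeq2 adjusted p = 0.0152). Of 30 response genes outside the family, 24 were tested, 22 were above and 2 below 0, and the median was 1.60. DESeq2 called 10, all higher, beside 44 of all 16044 genes (0.274%). In 18 both miR-146a-5p libraries lay above both scramble libraries, beside 2668 of all 14810 tested genes (18.0%). LCN2 and SAA1 passed the filter on low counts through the miR-146a-5p libraries alone and so had to be higher. Without them, 20 of 22 were above 0, 16 had both miR-146a-5p libraries above, and the median was 1.44. TNFAIP3 is on both lists. The lists were drawn up with results of these data known and are no independent evidence of a direction.

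The response genes called with the smallest p were C3, CSF2, CXCL1, CXCL8 and IL6. C3, the central complement component, had 6.71 and 12.4 CPM in scramble and 154 and 144 CPM with miR-146a-5p. CSF2, the cytokine GM-CSF, had 0.671 and 0.879 CPM against 11.9 and 12.1 CPM. The neutrophil chemokines CXCL1 and CXCL8 had 85.1 and 125 CPM, and 58.7 and 40.7 CPM, in scramble. With miR-146a-5p they had 762 and 738 CPM, and 351 and 348 CPM. IL6 had 5.32 and 6.33 CPM against 30.5 and 26.9 CPM. DESeq2 adjusted p ran from 4.52e-15 (C3) to 1.81e-07 (IL6), and edgeR's was 0.728 for each of the 5. The log2 fold changes of these 5 were 2.30 (IL6) to 3.97 (C3), beside 2.34 for NFKBIZ and -0.01 to 0.36 for the 5 subunits. With GC and length offsets CXCL8 was 1.95 in place of 2.81 and IL6 was 2.17, both under NFKBIZ at 2.31. Whether the change in response genes differs from that in the family genes was not tested.

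**Figure D5:**
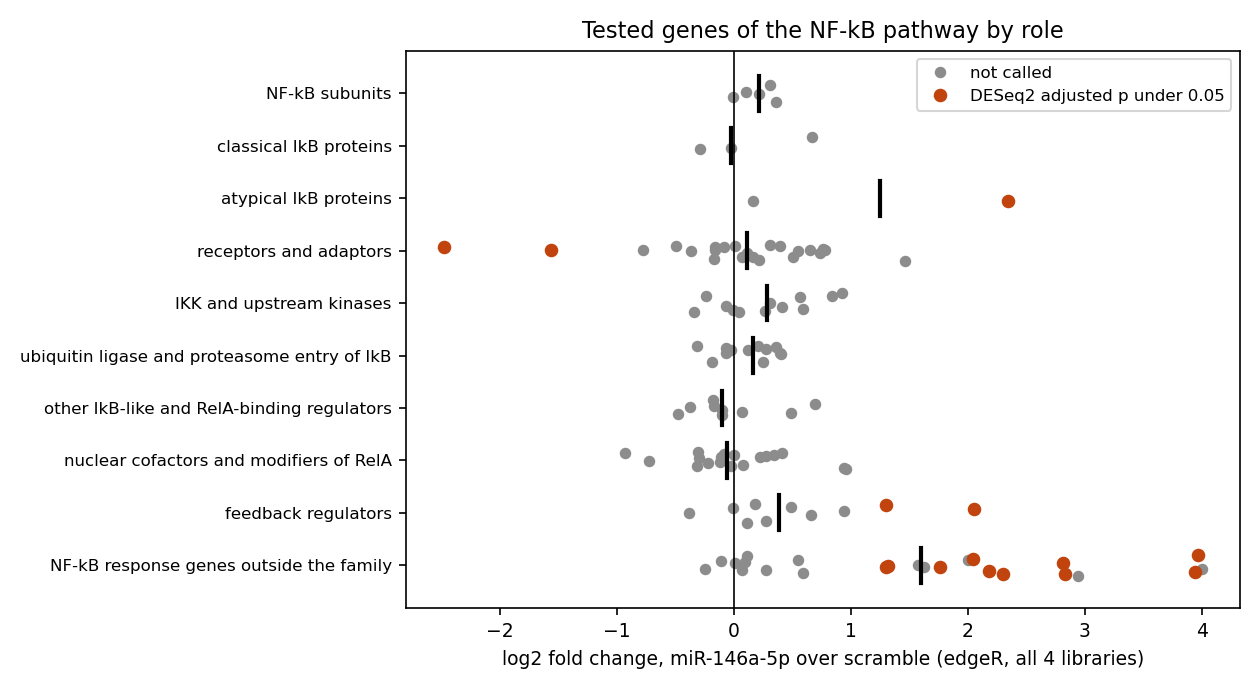
Log2 fold change, miR-146a-5p over scramble (edgeR, all 4 libraries), of the tested genes of 10 groups by role, with each group's median as a black bar and genes past DESeq2's threshold in orange (height within a group is random). Called genes lie among the atypical IkB proteins (NFKBIZ), receptors and adaptors, feedback regulators and response genes, whose median is 1.60.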

How the data were processed

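The authors deposited 1 table of the series, which gives for each gene an estimated count and TPM per library and their DESeq2 results (the fold change, a ratio with scramble as the denominator, its log2, p-value and adjusted p-value), per the file headers. Tools named in the submitters' processing notes, with no role or order, are HTSeq 0.6.1, HISAT2 2.0.1, cutadapt 1.9.1 and DESeq2, and the build is hg19. Of the counts of genes above 0 in all libraries, 34.3% were not whole. The sources used here do not name the tool that made them. A model that shares reads among genes or transcripts gives such values, so family genes with fractional counts (REL, NFKBIB) are less certain.

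Counts were rounded and tested with edgeR 4.0.16 (R 4.3.3; filterByExpr at count 10 and total 15; TMM; quasi-likelihood; two-sided; Benjamini-Hochberg over all tested genes; threshold 0.05), with SEs derived from the F statistic. Alternatives were DESeq2 1.42.0 on all genes (filtering target 0.1), limma 3.58.1 (voom, and log2(TPM + 1) with a pseudocount of 1), other scalings and filters, leaving out each library, the replicate number as a block, and smooth offsets for transcript GC content and length. Standard deviations are over 2 libraries. Log2 CPM used a prior count of 2. Scripts were tested on simulated data. Replicate pairs differed by more than sampling noise (chi-square per degree of freedom 161 and 6.52), so none was counted as a duplicate.

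Annotation came from GENCODE release 29 (GRCh38; 58457 identifiers matched) and sequences from RefSeq. Coordinates are from GRCh38 only. The members, the gene lists and the tests were chosen with earlier results of these data known. Genes outside the family are named by rule: IRAK1 and MIR3142HG; per pathway list, up to 5 genes past the DESeq2 threshold (edgeR called none), or else the 2 with the smallest edgeR p; and the 3 nearest profiles. IRAK2 and TRAF6 were named outside this rule, after their values were seen. Cell type markers are named as a check of the label.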

Additional observations from a re-analysis of the deposited data

How the results depend on the processing

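With 2 libraries a group, of which the scramble pair differed widely, counts of calls moved with the settings. Over all genes edgeR called 0, and 8 to 8421 when 1 library was left out. DESeq2 called 52, and 5349 without scramble replicate 1, 1107 without scramble replicate 2, 2 without miR-146a-5p replicate 1 and 2 without miR-146a-5p replicate 2. Of the 10 family genes edgeR called 0, and 0 to 8 when 1 library was left out (5 without scramble replicate 1, 8 without scramble replicate 2). DESeq2 called 1, and 3 without either scramble library. The DESeq2 leave-outs and blocks, the crossed block and the response-gene median without LCN2 and SAA1 were chosen after seeing the data. The cause of these shifts was not tested.

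Deviations from the group mean correlated at -0.145 between libraries with the same replicate number. With 2 libraries a group this value must be the same for both numbers. It cannot show whether the numbers mark a shared culture or day. With the replicate block edgeR called 5 genes and 0 of the family, and DESeq2 called 10 genes and 1 of the family. With the numbers crossed between groups edgeR called 0 genes and 0 of the family.

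The log2 ratio of IkB to Rel TPM was 0.53. It was 0.40 with NFKB1 and NFKB2 added to the Rel sum, 0.69 for NFKBIA over RELA alone and 0.69 with BCL3 and NFKBIZ added to the IkB sum.

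In 6 family genes the sign depended on which scramble library was left out. With 1 library left out, log2 fold changes ran from -0.23 to 0.27 for RELA, -0.69 to 3.20 for REL, -0.07 to 0.30 for NFKB1, -0.25 to 0.25 for NFKBIB, -0.60 to 0.12 for NFKBIE and -0.13 to 0.54 for BCL3, and the median of other IkB-like regulators from -0.18 to 0.12. For these 6 genes the lowest and highest values came from leaving out a scramble library; for the median, these were the only leave-outs run. RELA (-0.01) was 0.01 with voom and with the replicate block, 0.12 with GC and length offsets and with these plus the block, and 0.05 on the TPM scale. NFKBIB (-0.03) was 0.05 with offsets, 0.13 with offsets and the block, and 0.06 on the TPM scale. The median of the genes of the ubiquitin ligase and its partners was -0.07 with offsets. RELB, NFKB2, NFKBIA and NFKBIZ kept a positive sign under every alternative run. The lowest count behind a family value was 14.35, for REL in scramble replicate 2, and the part of depth in its spread was not tested.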
